A study of Mus musculus with 11 samples.

Results

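Mouse genes for the proteins of the spliceosomal small nuclear ribonucleoproteins (snRNPs) and of splicing factors 3a and 3b were compared between pancreatic tumours grown in hosts that had lost the kinase PKN2 and tumours grown in wild-type hosts. The genes were taken by name: every protein-coding gene in the count table whose GENCODE M21 symbol begins with Snrp, Snrnp, Lsm, Sf3a or Sf3b. The rule found 42 of the 54232 listed genes. Of these, 18 encode short Sm or LSm proteins, 23 encode other snRNP, LSm or SF3 proteins, and 1, Lsmem1, shares only the prefix, since it encodes a membrane protein. Medians were computed separately for the 18 short genes and the 23 others. The set was chosen because Snrnp48, the gene for a protein of the minor spliceosome, had lower counts in the KO tumours of these same data, so the set was chosen by the CPM of that 1 gene and its own KO and WT values are given as a description, without a test.

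The samples were 11 female orthotopic tumours in C57BL/6 mice, 6 in KO hosts (PKN2 fl/fl, replicates A to F) and 5 in WT hosts (PKN2 +/+, replicates A to E), all sex- and age-matched adults. Hosts of both groups carried a heterozygous Rosa26 CreERT2 allele and received tamoxifen, and the Rosa26 locus drives Cre in host cells of all types, not in the stroma alone. Each tumour was started in the pancreas from 1000 cells of a single carcinoma line, TB32048, which came from a female KPC mouse and kept Pkn2. A whole tumour piece therefore holds carcinoma cells with Pkn2 beside host cells with or without it, and in such bulk RNA fewer cells of a type and less RNA per cell cannot be told apart. Pkn2 itself was measured at 80.1, 98.2 and 108 CPM (lowest, median and highest KO tumour; CPM are counts scaled to libraries of 1000000 after normalisation) and at 69.2, 62.9, 84.4, 138 and 129 CPM in WT A to E. These ranges overlapped, although every KO tumour lay below WT D and E. The log2 fold change (KO minus WT) was -0.0 with all tumours and -0.46 without WT A, B and C, whose libraries are described below. Counts of the whole gene, to which the carcinoma cells contribute, thus did not check the genotype labels.

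Introns are removed by the spliceosome, whose snRNPs each hold a small nuclear RNA wrapped in a ring of 7 short Sm proteins, or of LSm proteins in the case of U6. The U1 and U2 snRNPs recognise the 5′ splice site and the branch site of most introns, with SF3a and SF3b as parts of the U2 particle, and the U4/U6.U5 tri-snRNP brings the catalytic core. A small class of introns is instead recognised by the U11/U12 particle of the minor spliceosome, in which the U11-48K protein encoded by Snrnp48 binds the 5′ splice site. Other LSm rings act outside splicing, in mRNA decay and in histone mRNA processing. Most of these genes are transcribed in every cell type, so that their level reflects the whole tissue, but Snrpn and Lsmem1 were barely counted here.

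To show the start regions of the genes on which the comparison turned, RefSeq promoters of GRCm38.p6 (250 bases before to 50 after the annotated start, written 5′ to 3′ on the strand of the gene) are given for Snrnp48, which was low in every KO tumour, and for Snrpe and Lsm5, the Sm and LSm genes with the largest WT excess. Capitals mark matches, on either strand, to CCGGAAG (an ETS factor motif), GGGCGG (the GC box), CCAAT (its namesake box) and the TATA box TATAAA.
Snrnp48, chr13:38204689-38204988, plus strand: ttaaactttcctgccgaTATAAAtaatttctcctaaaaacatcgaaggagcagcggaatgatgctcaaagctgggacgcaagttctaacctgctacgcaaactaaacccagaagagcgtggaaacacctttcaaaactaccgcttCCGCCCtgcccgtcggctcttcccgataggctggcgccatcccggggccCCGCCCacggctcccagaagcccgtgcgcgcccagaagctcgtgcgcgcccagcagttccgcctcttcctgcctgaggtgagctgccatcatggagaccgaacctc
Snrpe, chr1:133610231-133610530, minus strand: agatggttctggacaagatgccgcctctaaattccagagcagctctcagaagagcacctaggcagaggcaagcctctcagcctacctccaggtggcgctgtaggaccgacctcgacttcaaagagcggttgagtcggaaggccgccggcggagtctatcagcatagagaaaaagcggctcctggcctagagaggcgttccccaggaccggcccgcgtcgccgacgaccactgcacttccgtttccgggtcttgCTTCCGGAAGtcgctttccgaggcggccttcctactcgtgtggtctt
Lsm5, chr6:56704650-56704949, minus strand: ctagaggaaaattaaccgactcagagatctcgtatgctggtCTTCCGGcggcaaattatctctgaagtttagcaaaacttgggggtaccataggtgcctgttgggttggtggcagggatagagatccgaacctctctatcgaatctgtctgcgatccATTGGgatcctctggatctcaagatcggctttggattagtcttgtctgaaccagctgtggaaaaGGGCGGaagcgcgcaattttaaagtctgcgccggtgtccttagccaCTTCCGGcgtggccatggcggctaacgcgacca
Snrnp48 held a TATAAA and a pair of GC boxes and no CCGGAAG, whereas Snrpe held CCGGAAG on both strands in overlapping positions and Lsm5 held it in 2 places. Promoters were found for 34 of the 42 genes, 41 promoters in all. CCGGAAG was present in 14 of the 41 (34.1%) against 8.86% of all 32851 mouse promoters of the same length, and the GC box in 63.4% against 35.7%. The shares were 9.76% against 13.6% for TATAAA, 34.1% against 37.4% for CCAAT and 4.88% against 7.15% for the E-box CACGTG. The median GC content was 57.3% against 52.7%. These are matches of letters, which differ with GC content, and were not tested as binding sites.

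Counts per tumour summed to between 16294128 (WT B) and 31121422 (WT E), so that 3 counts corresponded to 0.0964 to 0.184 CPM. After the expression filter 40 of the 42 genes were tested, among 16536 genes in all. Snrpn, an imprinted relative of Snrpb, had only 1 to 17 counts per tumour, Lsmem1 had at most 1, and neither was tested. WT A, B and C stood apart from the other 8 tumours in a way that touches most results here. They held an excess of short transcripts: Spearman's rho between the coding length of a gene and its deviation from the mean over tumours was -0.538, -0.484 and -0.271 in WT A, B and C, against 0.109 to 0.409 in the KO tumours and 0.321 and 0.448 in WT D and E. These rho values are across genes of one library, which are not independent. The same 3 libraries had the highest share of counts from ribosomal RNA genes, 1.31%, 6.39% and 1.40%, against 0.308 to 0.739% in KO tumours, 0.765% in WT D and 0.241% in WT E. The fold changes of the genes named below are therefore given with all tumours and also without WT A, B and C, an alternative that leaves 6 KO against 2 WT tumours.

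With all 11 tumours, the genes were on balance lower in KO tumours, and the short Sm and LSm genes most of all. All 17 tested short genes had a negative log2 fold change (KO minus WT), from -1.59 to -0.26 with a median of -0.90. The 23 others were spread around a median of -0.15, from -1.16 to 0.36, with 14 below and 9 above 0. For all 16536 tested genes the median was -0.03, with 52% below and 48% above 0. At an adjusted p under 0.05 (edgeR quasi-likelihood test, Benjamini-Hochberg over all tested genes), 0 of the 40 genes were called, beside 0.0181% of all tested genes higher and 0% lower in KO tumours. Leaving out Snrnp48, the lowest edgeR adjusted p was 0.0906, for Snrpe. At an unadjusted p under 0.05, 22 of the other 39 genes were lower and 1 was higher, where 15.5% of all tested genes were lower and 8.57% were higher. Among the 2872 tested protein-coding genes with a coding length under 750 bases, 987 were lower and 109 were higher at that p. The 22 genes of the set were 15 short Sm or LSm genes and 7 of the others, and the 1 higher was not a short Sm or LSm gene. Of the 7, Sf3b5, Snrnp25, Snrpc, Snrnp27 and Snrpb2 also had coding lengths under 750 bases (258 to 675). Snrpa1 and Lsm11 were longer (765 and 1083 bases). DESeq2 called 11 of those 39 genes lower and 0 higher at its adjusted p under 0.05, against 5.99% and 3.43% of all tested genes. Of the 2872 genes with a coding length under 750 bases it called 387 lower and 50 higher. The 11 included 9 short Sm or LSm genes, and the others were Snrnp25 and Snrnp27, with coding lengths of 369 and 573 bases. When WT D was left out, 14 of the 39 genes passed the edgeR adjusted p as lower, beside 3.87% of all genes tested in that fit. The count was 17 when WT E was left out, beside 7.46%.

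Without WT A, B and C this difference of the short genes was no longer there. Their median log2 fold change was 0.03, with 9 above and 8 below 0 (it was -0.56 without WT B alone), and that of the 23 others was -0.02. Of the 39 genes other than Snrnp48, 3 were then higher (Snrnp35, Sf3b6 and Snrpd3) and 2 lower (Sf3a1 and Sf3b2) at an unadjusted edgeR p under 0.05, near the 8.21% and 9.01% found over all genes in that fit, and 0 were called at the adjusted p, beside 0.0227% of all genes higher and 0.017% lower. Short genes in general moved in the same way, since the 2872 tested protein-coding genes with a coding length under 750 bases had a median of -0.41 with all tumours and 0.13 without WT A, B and C. Whether RNA quality in those 3 libraries took part in the result was not tested.

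**Figure D1:**
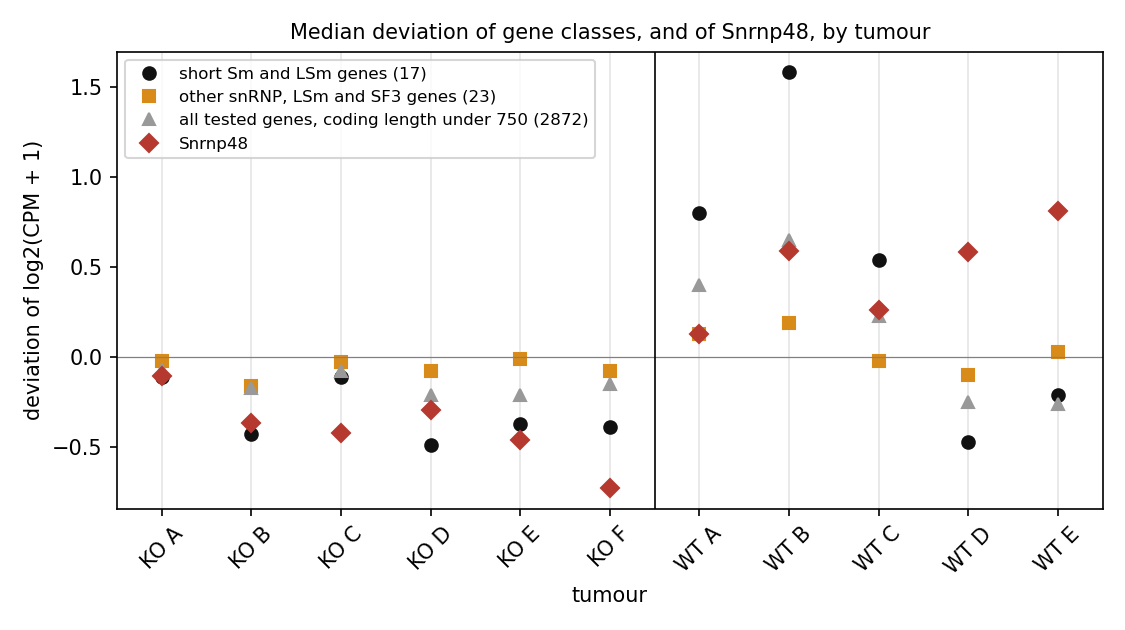
Median deviation of log2(CPM + 1) from the mean of each gene over the 11 tumours (y axis), by tumour (x axis), for 17 short Sm and LSm genes (circles), 23 other genes (squares), all tested protein-coding genes with a coding length under 750 bases (triangles) and Snrnp48 alone (diamonds). The short Sm and LSm genes stand at 0.80, 1.58 and 0.54 in WT A, B and C and at -0.47 and -0.21 in WT D and E, within the KO range of -0.49 to -0.11, whereas Snrnp48 is above 0 in all 5 WT tumours.

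The Sm proteins form the ring on U1, U2, U4 and U5, and on U11 and U12 of the minor spliceosome. All 7 tested Sm genes had lower KO means, with a median log2 fold change of -0.81, and 6 passed the unadjusted p in edgeR. That p was passed as lower by 15.5% of all tested genes and by 987 of the 2872 with a coding length under 750 bases. Snrpe, the gene for SmE, was measured at 58.8, 66.1 and 85.2 CPM (lowest, median and highest of the 6 KO tumours) and at 289, 423, 186, 73.0 and 61.9 CPM in WT A to E. The 3 tumours WT A, B and C were above every KO tumour, and WT D and E lay inside the KO range. The log2 fold change of Snrpe was -1.59 ± 0.41 (SE; edgeR adjusted p = 0.0906), and 0.03 ± 0.15 without WT A, B and C. Snrpg, which encodes SmG, was measured at 62.5, 77.9 and 92.6 CPM in KO tumours and at 213, 518, 134, 82.3 and 107 CPM in WT A to E. Here WT E also stood above every KO tumour, and WT D lay inside their range. Snrpg had a log2 fold change of -1.47 ± 0.39 (edgeR adjusted p = 0.0914), and -0.30 ± 0.16 without the 3 libraries. For the other Sm genes, Snrpd1, Snrpd2, Snrpd3, Snrpf and Snrpb, the values ran from -0.93 (Snrpd2) to -0.26 (Snrpd3) with all tumours and from 0.05 (Snrpb) to 0.41 (Snrpf) without WT A, B and C. In Snrpd3, the gene for SmD3, KO tumours at 97.6 to 137 CPM were all above WT D (83.1 CPM) and WT E (93.7 CPM) and all below WT A, B and C (168, 196 and 143 CPM).

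Among the LSm genes, those of the Lsm1 to Lsm7 ring of mRNA decay and of the Lsm2 to Lsm8 ring on U6 RNA share most subunits. The 10 short LSm genes, which beside these rings include Lsm10 of the U7 snRNP and Lsm12, had log2 fold changes from -1.43 to -0.62. Of the 10, 9 passed the unadjusted edgeR p, where 15.5% of all tested genes were lower. Among the 2872 genes with a coding length under 750 bases, 987 were lower at that p. Lsm5, a subunit of both rings, was measured at 12.4, 13.8 and 18.7 CPM in KO tumours and at 43.1, 87.9, 37.2, 13.9 and 19.5 CPM in WT A to E. WT A, B and C were above all other tumours, while WT D lay inside the KO range and WT E just above it. Lsm5 had a log2 fold change of -1.43 ± 0.38 (edgeR adjusted p = 0.0912), and -0.15 ± 0.23 without the 3 libraries. Lsm4, also a subunit of both rings, was measured at 57.1, 72.3 and 77.0 CPM in KO tumours and at 229, 298, 138, 67.5 and 74.3 CPM in WT A to E. Its log2 fold change went from -1.20 ± 0.34 (edgeR adjusted p = 0.0942) to -0.01 ± 0.13 without WT A, B and C, with WT D and E inside the KO range. Lsm5 shares 11.8% of its 100-base stretches with other genes, so that some of its reads may not have been placed uniquely (alignments were not examined). The figure was 8.22% for Snrpg, 5.49% for Snrpe and 0% for Snrnp48.

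Lsm1, which defines the decay ring, was the only gene other than Snrnp48 whose KO and WT values did not overlap (2.01% of all tested genes were lower in KO tumours without overlap, and 1.59% higher). It was measured at 22.2, 25.9 and 29.7 CPM in KO tumours and at 54.8, 103, 39.4, 30.0 and 31.5 CPM in WT A to E. The gap between the highest KO tumour and WT D was thus 29.7 against 30.0 CPM. Lsm1 had a log2 fold change of -0.98 ± 0.29 (edgeR adjusted p = 0.0989), and -0.23 ± 0.14 without the 3 libraries. The 3 longer LSm genes varied less. Lsm11, the partner of Lsm10 in the U7 snRNP that cuts histone mRNA, was measured at 7.52, 10.1 and 11.8 CPM in KO tumours and at 13.4, 12.9, 14.7, 10.5 and 15.4 CPM in WT A to E. All WT tumours but WT D lay above the KO range. The log2 fold change of Lsm11, -0.42 ± 0.18 (edgeR adjusted p = 0.172), changed little when WT A, B and C were left out (-0.37 ± 0.21). Lsm14b, a P-body protein that represses translation, was measured at 51.8, 64.9 and 74.2 CPM in KO tumours and at 66.8, 86.1, 72.8, 64.0 and 67.0 CPM in WT A to E, which overlapped, with a log2 fold change of -0.15 ± 0.14, and -0.02 ± 0.14 without WT A, B and C. Its paralogue Lsm14a was at 0.14 ± 0.14, and at 0.04 ± 0.13 without them.

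**Figure D2:**
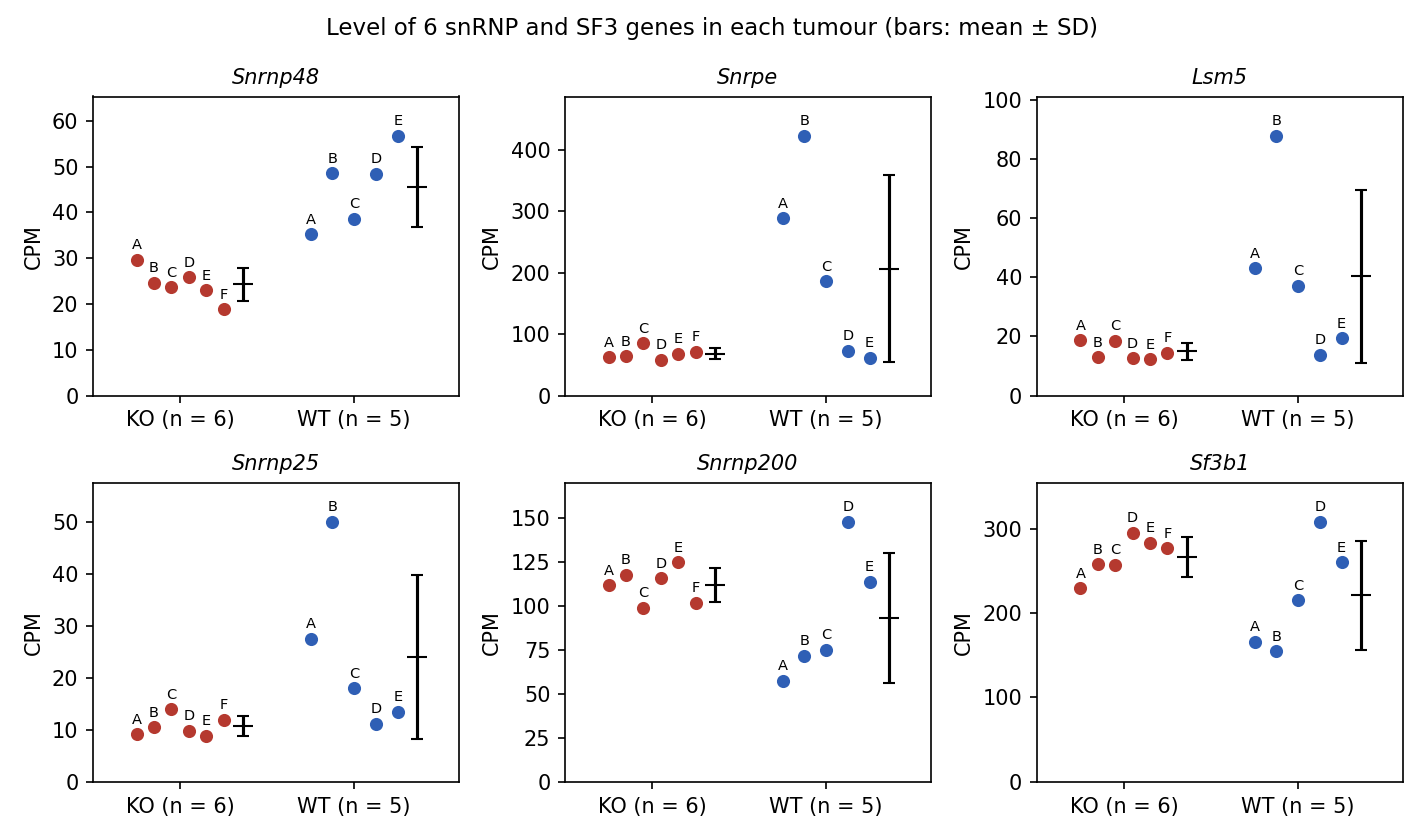
CPM (y axes, from 0) of Snrnp48, Snrpe, Lsm5, Snrnp25, Snrnp200 and Sf3b1 in each KO tumour (red, n = 6) and WT tumour (blue, n = 5), with replicate letters and the mean ± SD of each group as a bar. In Snrnp48 all 5 WT tumours lie above the KO tumours (highest 29.7 CPM), while in Snrpe, Lsm5 and Snrnp25 WT A, B and C lie above them and WT D and E near them, and in Snrnp200 and Sf3b1 WT A, B and C lie below them.

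The 3 proteins particular to the U1 snRNP differed by size. Snrpc, which encodes the small U1-C protein at the 5′ splice site, was measured at 67.2, 71.3 and 81.4 CPM in KO tumours and at 117, 182, 137, 65.7 and 71.1 CPM in WT A to E. The 3 libraries WT A, B and C were again above all others. Snrpc had a log2 fold change of -0.65 ± 0.24 (edgeR adjusted p = 0.132), and 0.10 ± 0.12 without them. Snrpa, the gene for U1-A, was measured at 71.6, 78.0 and 85.9 CPM in KO tumours and at 88.9, 130.0, 81.3, 85.0 and 86.6 CPM in WT A to E, so that WT C and D lay among the KO values. Its log2 fold change was -0.26 ± 0.15, and -0.11 ± 0.10 without WT A, B and C. Snrnp70, the longest of the 3 and the gene for U1-70K, had a log2 fold change of 0.07 ± 0.18 (-0.04 ± 0.19 without the 3 libraries), with WT values spread from 165 to 313 CPM around the KO range of 221 to 252 CPM.

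Of the 11 U2 genes, 5 had positive and 6 negative log2 fold changes, and the smallest proteins were the lowest. Snrpb2, the gene for the RNA-binding protein U2-B″, was measured at 61.7, 68.6 and 72.9 CPM in KO tumours and at 132, 167, 110.0, 68.1 and 62.5 CPM in WT A to E. Snrpb2 had a log2 fold change of -0.67 ± 0.23 (edgeR adjusted p = 0.121), and 0.06 ± 0.11 without WT A, B and C. Snrpa1, the gene for its partner U2-A′, was measured at 24.9, 30.0 and 34.6 CPM in KO tumours and at 65.8, 57.1, 55.3, 27.8 and 27.5 CPM in WT A to E. In both partners WT D and E lay inside the KO range. The log2 fold change of Snrpa1 went from -0.65 ± 0.24 to 0.11 ± 0.16.

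SF3b holds the branch site adenosine, and its subunits range from 85 residues (Sf3b5) to 1303 (Sf3b1). Sf3b5 had a log2 fold change of -0.81 ± 0.31 with all tumours and 0.36 ± 0.17 without WT A, B and C, and Sf3b6, which contacts the branch site, went from -0.35 ± 0.24 to 0.39 ± 0.15. Sf3b1, the large subunit that closes around the branch helix, went the other way, from 0.27 ± 0.19 to -0.09 ± 0.12, and Sf3b3 went from 0.10 ± 0.19 to -0.28 ± 0.14. Sf3b1 was measured at 229, 268 and 295 CPM in KO tumours and at 166, 155, 215, 308 and 260 CPM in WT A to E. WT A, B and C were below every KO tumour and WT D above, the mirror image of the short genes. Sf3b4 was at 0.00 ± 0.14 with all tumours and -0.11 ± 0.12 without the 3 libraries, and 32.5% of its 100-base stretches are shared with another gene. Sf3b2 was at -0.04 ± 0.18. In SF3a, Sf3a2 was the only gene of the set with an unadjusted p under 0.05 in the higher direction, at 56.0, 59.7 and 66.7 CPM in KO tumours and 43.0, 43.2, 48.4, 49.9 and 57.3 CPM in WT A to E. The WT E value lay inside the KO range, and the log2 fold change was 0.32 ± 0.13 (edgeR adjusted p = 0.157), and 0.18 ± 0.12 without WT A, B and C. Sf3a1 was at 0.15 ± 0.21 and Sf3a3 at -0.07 ± 0.13. Without WT A, B and C, Sf3a1 and Sf3b2 were at -0.30 ± 0.12 and -0.26 ± 0.10, and Sf3a3 was at 0.00 ± 0.11.

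In the tri-snRNP, Snrnp27, a small protein of 190 residues, was measured at 40.2, 49.3 and 55.0 CPM in KO tumours and at 107, 190.0, 107, 41.8 and 44.5 CPM in WT A to E. WT D and E lay inside the KO range, and the log2 fold change was -0.99 ± 0.33 (edgeR adjusted p = 0.115) with all tumours and 0.19 ± 0.14 without the other 3. Snrnp40, a WD-repeat protein of U5, was measured at 39.2, 44.8 and 55.7 CPM in KO tumours and at 70.6, 62.4, 47.4, 45.9 and 44.9 CPM in WT A to E. These values overlapped, with WT C, D and E among the KO tumours, and the log2 fold change of Snrnp40 was -0.23 ± 0.16, and 0.03 ± 0.14 without WT A, B and C. Snrnp200, the U4/U6 unwinding helicase and the longest protein of the set with 2135 residues, was at 0.26 ± 0.22 with all tumours and at -0.22 ± 0.13 without WT A, B and C. Its KO values, 99.1 to 125 CPM, were above WT A, B and C (57.5, 71.7 and 75.3 CPM) and below WT D (148 CPM).

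**Figure D3:**
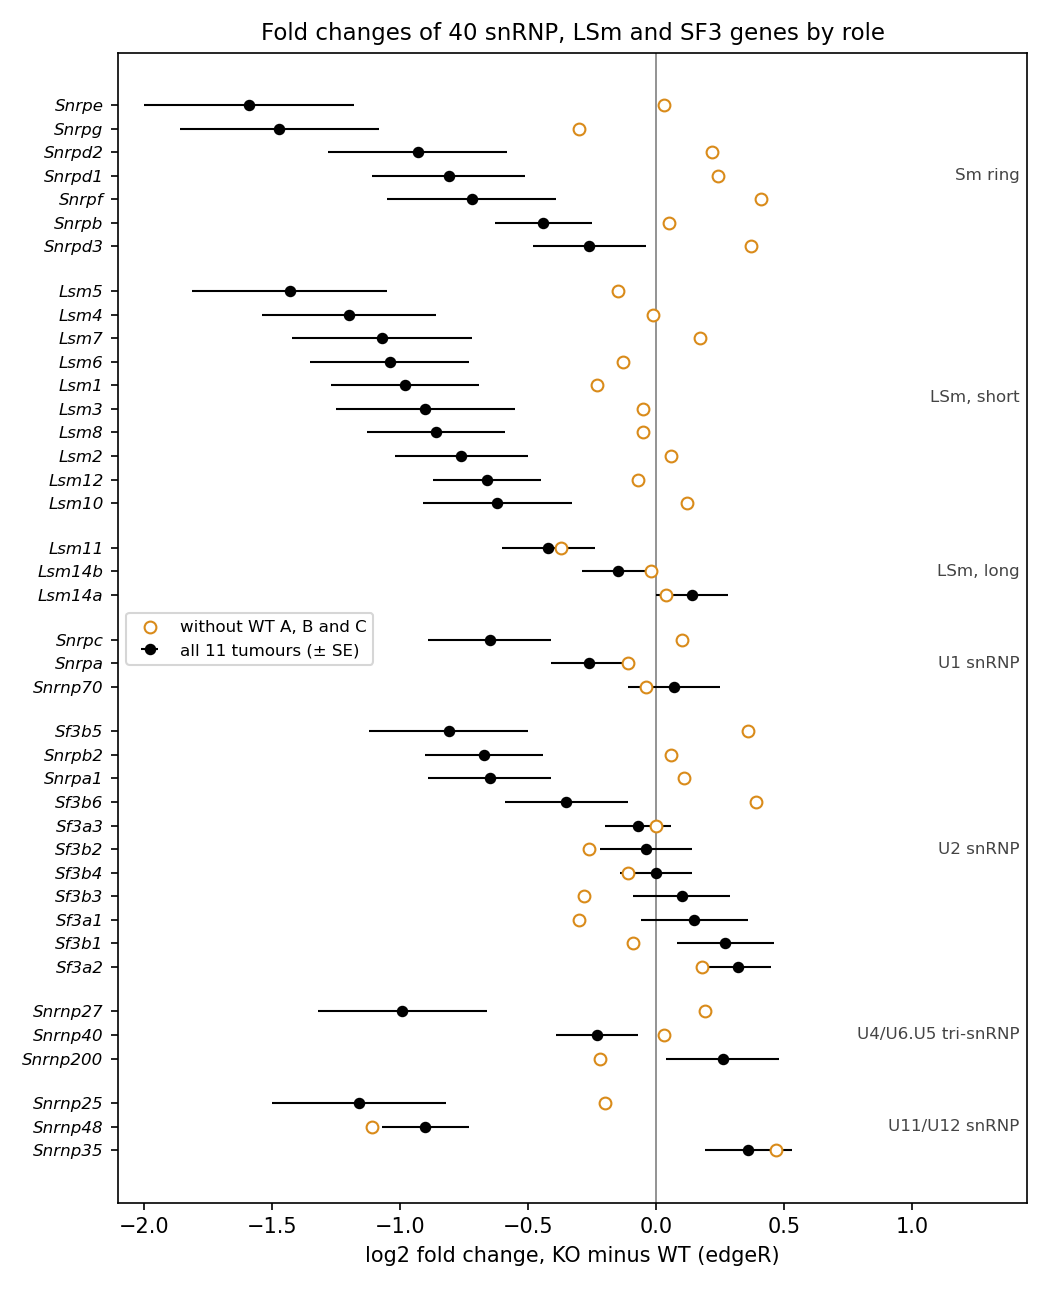
Fitted log2 fold change (KO minus WT, x axis) of the 40 tested genes, ordered by role, with all 11 tumours (filled circles, bars ± SE) and without WT A, B and C (open circles). The open circles of the short Sm and LSm genes gather between -0.30 and 0.41, while that of Snrnp48 lies at -1.11, beyond its value of -0.90 with all tumours.

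Of the 3 U11/U12 genes, Snrnp48 was lower in KO tumours with and without the 3 libraries. Snrnp48 (ENSMUSG00000021431, chr13:38204938-38227665 on the plus strand of GRCm38) was measured at 29.7, 24.7, 23.7, 25.9, 23.0 and 18.9 CPM in KO A to F and at 35.2, 48.6, 38.6, 48.5 and 56.8 CPM in WT A to E, from 470 to 1923 counts per tumour. The highest KO tumour lay below the lowest WT tumour. WT E held the highest level and WT D the third highest, so that the libraries without the short-gene excess were among the highest for this gene. Group means were 24.3 ± 3.55 CPM (SD, n = 6) in KO tumours and 45.5 ± 8.68 CPM (SD, n = 5) in WT tumours, a WT level 1.87 times that of KO. The log2 fold change was -0.90 ± 0.17 (SE). It lay between -1.17 and -0.81 in 19 alternative fits, was -1.11 ± 0.16 without WT A, B and C, and was between -0.98 and -0.81 when any 1 tumour was left out. With a coding length of 1011 bases, Snrnp48 belongs to a length class (750 to 1500 bases, 4907 tested genes) with a median of -0.09. Since these values chose the gene, no p-value is attached to them, and the alternative fits, which reuse the same counts, are no independent check.

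Of the other 2 U11 genes, Snrnp25 had the pattern of the short Sm and LSm genes and Snrnp35 did not. Snrnp25, which encodes U11-25K, was measured at 8.90, 10.2 and 14.0 CPM in KO tumours and at 27.6, 50.1, 18.0, 11.2 and 13.5 CPM in WT A to E. WT D and E lay among the KO values, and the log2 fold change of Snrnp25 was -1.16 ± 0.34 (edgeR adjusted p = 0.0989) with all tumours and -0.20 ± 0.21 without the 3 libraries. Snrnp35, the gene for the U11-35K relative of U1-70K, was measured at 15.3, 19.6 and 23.2 CPM in KO tumours and at 17.8, 16.7, 13.2, 13.5 and 14.7 CPM in WT A to E. WT A and B lay inside the KO range and WT C, D and E below it. Snrnp35 had a positive log2 fold change, 0.36 ± 0.17 (edgeR adjusted p = 0.221), and 0.47 ± 0.20 without WT A, B and C. The difference between Snrnp48 and these genes was not tested.

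Seen against WT A, B and C alone, 25 of the 40 genes were lower in all 6 KO tumours, Snrnp48 included, and 5 were higher (Sf3a1, Sf3a2, Sf3b1, Sf3b3 and Snrnp200), beside 16% and 13.8% of all tested genes. Against WT D and E alone, 4 were lower in all KO tumours (Lsm1, Sf3a1, Sf3b2 and Snrnp48) and 3 were higher (Sf3b6, Snrnp35 and Snrpd3), beside 10.7% and 9.02%. The latter comparison rests on only 2 WT animals, and both use the same KO tumours. Lsm1 and Snrnp48 were the genes below both sets of WT tumours.

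**Figure D4:**
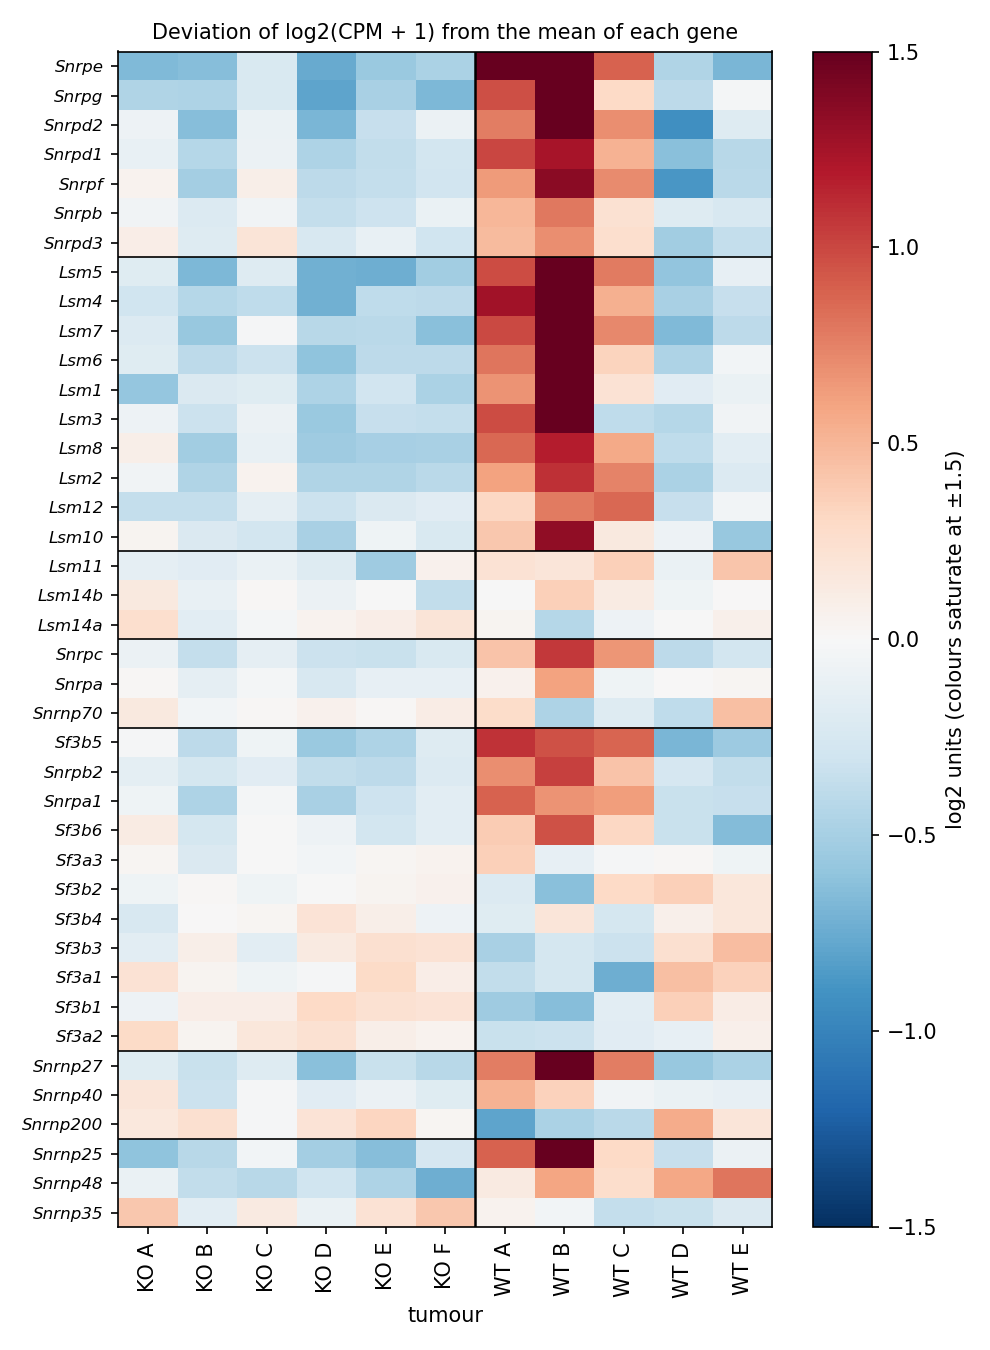
Deviation of log2(CPM + 1) from the mean of each gene (colour, red high and blue low, saturating at ±1.5), for the 40 tested genes in rows ordered by role and the 11 tumours in columns, with lines between roles and between KO and WT. The short Sm and LSm rows are red in WT A, B and C, apart from Lsm3 in WT C, and mostly pale or blue in WT D and E and in KO tumours, the row of Snrnp48 is red in all 5 WT columns, and Sf3b1, Sf3b3 and Snrnp200 are blue in WT A, B and C.

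Fold changes followed coding length. In all tested protein-coding genes the median log2 fold change was -0.41 under 750 bases, -0.09 from 750 to 1500, 0.13 from 1500 to 3000 and 0.28 from 3000 bases upward. Without WT A, B and C the order turned round, at 0.13, 0.03, -0.05 and -0.09. With an offset for coding length in each library, added after the data were seen, the median of the short Sm and LSm genes moved from -0.90 to -0.28 and that of the others from -0.15 to -0.11, while Snrnp48 stood at -0.83. With an offset for total exonic length, which counts introns kept in some transcripts, the short genes stood at -0.66 and Snrnp48 at -1.17. The short Sm and LSm genes had thus lower values than genes of like coding length in general with all tumours, but this was a comparison of medians and was not tested. Per kilobase of exonic length, the highest KO level of the set was that of Snrpb (77.5 CPM per kilobase), followed by Lsm4 (67.8) and Snrpf (56.2), and the lowest tested were Lsm11 (1.55) and Snrnp48 (2.40), although the exonic length of Snrnp48, 10129 bases, includes retained introns and lowers its value on this scale.

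**Figure D5:**
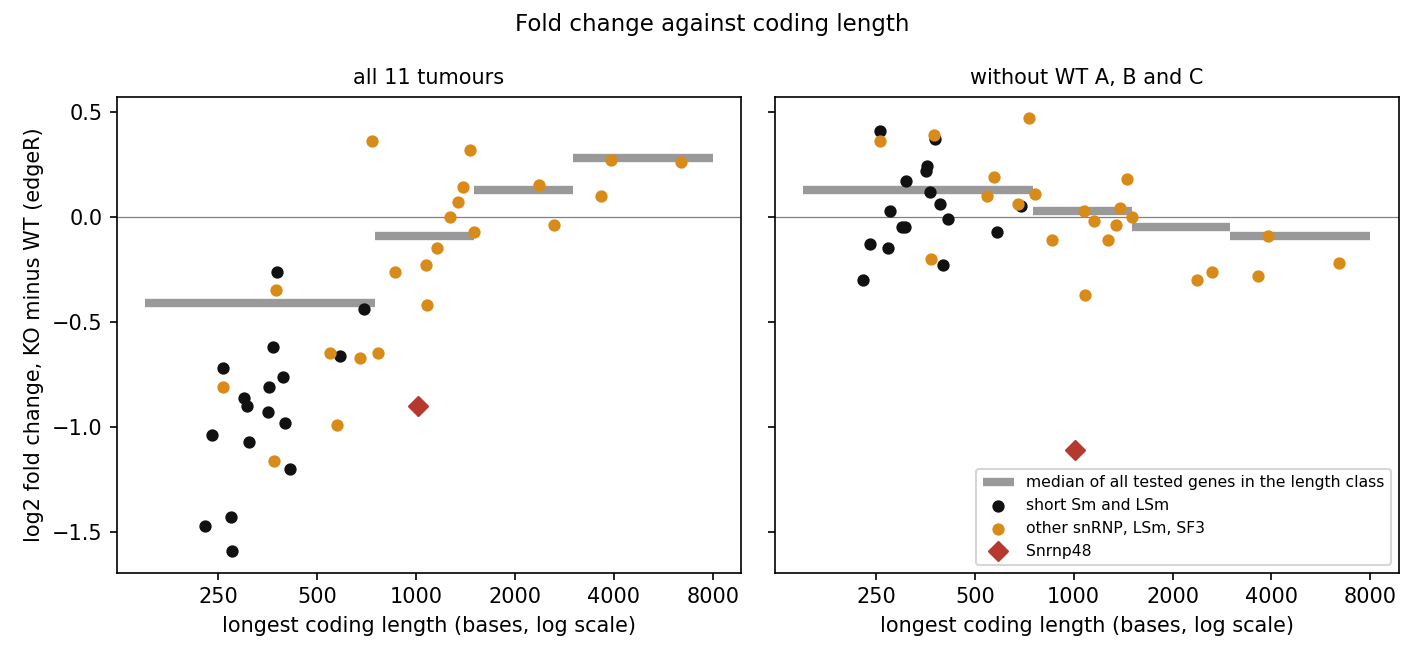
Fitted log2 fold change (KO minus WT, y axis) against the longest coding length in bases (x axis, log scale) for short Sm and LSm genes (black), other genes of the set (orange) and Snrnp48 (red diamond), with all tumours (left) and without WT A, B and C (right), and grey lines for the median of all tested protein-coding genes in 4 length classes. The trend with length on the left, from -0.41 to 0.28 in the grey medians, is turned on the right, from 0.13 to -0.09, and Snrnp48 lies below its class median of -0.09 or 0.03 in both.

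Partners of these proteins outside the name rule were taken from lists of known components. Of 10 other U11/U12 and minor spliceosome genes, 4 were lower and 0 higher at an unadjusted edgeR p under 0.05, where 15.5% of all tested genes were lower. At the adjusted p 0 passed in edgeR and 1 in DESeq2, which called 5.99% of all tested genes lower. Those with the smallest p were Zcrb1 (U11/U12-31K), with a log2 fold change of -1.04 ± 0.28, and Zmat5 (U11/U12-20K), with -0.72 ± 0.24. Both were near 0 without WT A, B and C, at -0.03 and -0.13. Rnpc3, which encodes the U11/U12-65K protein, was at -0.29 ± 0.18 with all tumours and at -0.42 without the 3 libraries, and was chosen for mention after its values were seen.

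Of 14 tri-snRNP and U5 partners, 3 were lower and 0 higher at the unadjusted p, beside 15.5% and 8.57% of all tested genes, led by Snu13 (-0.64 ± 0.19), which binds U4 RNA, and Txnl4a (-1.03 ± 0.34), a small U5 protein. Without WT A, B and C they stood at -0.12 and 0.18. Of 11 U2 partners, 2 were lower and 0 higher, Phf5a (-0.99 ± 0.25), a small SF3b subunit, and Rbm17 (-0.43 ± 0.18), which stood at -0.15 and 0.02 without the 3 libraries. Of the 9 genes listed as LSm partners in mRNA decay, 3 were higher and 1 was lower, against the same shares of all genes. The lower one, Naa38 (-1.18 ± 0.40), encodes an LSm-fold subunit of an N-terminal acetyltransferase and is no decay factor, while Dcp1b (0.66 ± 0.24) encodes a decapping cofactor. Without WT A, B and C these were at 0.32 and 0.44. For each of these 3 lists 0 genes passed the edgeR adjusted p, where DESeq2 passed 2, 1 and 2, beside 5.99% of all tested genes lower and 3.43% higher.

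Among the genes that assemble snRNPs, 13 of 16 tested had negative log2 fold changes with all tumours and 11 of 16 without WT A, B and C. Of these genes of the SMN and PRMT5 complexes and of snRNA import, 7 were lower and 0 higher at an unadjusted edgeR p under 0.05 with all tumours, where 15.5% of all genes were lower, and 5 were lower and 0 higher without WT A, B and C, where 9.01% were. The median of the list was -0.38 and -0.30. No gene passed the adjusted p in edgeR in either fit, and DESeq2 passed 5 with all tumours, beside 5.99% of all tested genes lower. Strap, the gene for an SMN-associated protein, was measured at 171, 160, 168, 159, 160 and 145 CPM in KO A to F and at 315, 374, 228, 179 and 245 CPM in WT A to E. All WT tumours lay above the KO tumours, as in 2.01% of all tested genes, with KO A at 171 and WT D at 179 CPM. The log2 fold change of Strap was -0.74 ± 0.18 (edgeR adjusted p = 0.0847) and -0.40 without WT A, B and C. Wdr77, which encodes the PRMT5 partner that presents Sm proteins for arginine methylation, was measured at 29.9, 40.0, 53.2, 42.8, 37.8 and 42.9 CPM in KO A to F and at 64.7, 44.7, 100, 62.4 and 65.4 CPM in WT A to E. Only WT B lay inside the KO range. Wdr77 had a log2 fold change of -0.71 ± 0.20 (edgeR adjusted p = 0.0942) and -0.63 without the 3 libraries, 1 of which, WT B, held the lowest WT value.

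Markers of some cell types had different levels in the groups. Summed over 7 B cell markers, KO tumours ranged from 38.0 to 111 CPM and WT tumours from 7.43 to 34.4 CPM, and all 7 were higher in KO tumours at an unadjusted edgeR p under 0.05. Summed neutrophil markers ranged from 305 to 2360 CPM in KO and from 186 to 1060 CPM in WT tumours, with 5 of 7 higher. Carcinoma epithelium markers ranged from 2720 to 5480 CPM in KO and from 3310 to 8750 CPM in WT tumours, with 3 of 10 lower. Of these 3, Krt18 went from a log2 fold change of -0.54 to -0.17 without WT A, B and C. Epcam went from -1.62 to -0.65 and Krt19 from -0.92 to -1.06. The 10 proliferation markers had like ranges, 734 to 1180 CPM in KO and 855 to 1140 CPM in WT tumours, with 1 higher. Fibroblast markers ranged from 4740 to 9790 CPM in KO and 2710 to 9770 CPM in WT tumours, and macrophage markers from 3520 to 6200 and 3080 to 6100 CPM, with 0 of 10 and 2 of 8 higher. The 2 higher, Adgre1 and Csf1r, went from 0.68 and 0.83 to 0.20 and 0.41 without WT A, B and C. Another macrophage marker, C1qa, went from 0.06 to 0.87. T cell markers ranged from 72.6 to 407 and 179 to 464 CPM and endothelial markers from 184 to 253 and 122 to 268 CPM, with 0 of 7 and 1 of 7 lower. Acinar markers ranged from 7.32 to 708 CPM in KO and 13.0 to 2120 CPM in WT tumours, with 1 of 9 lower. On these 9 lists 0 markers passed the edgeR adjusted p, and no marker was under 0.2 CPM in every tumour. The part of cell makeup in the Snrnp48 values was not tested.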

How the data were processed

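RNA from 11 tumours was sequenced with a strand-specific NEB Next Ultra II kit on a NovaSeq instrument. Per the study's methods and the submitters' notes, the authors trimmed paired reads with Trimmomatic, aligned them to GRCm38 (mm10) with HISAT2 (version 2.1.0) and counted them per gene with HTSeq (version 0.11.2). Every value was computed from the deposited raw counts, and the authors' normalised table was not used. Groups and replicate letters were taken from the sample titles. The set of genes and all lists were chosen with earlier results of these data known, and in the list of minor spliceosome partners Crebl2 was removed and Ccdc84 matched by its older name after values were seen.

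Genes kept by filterByExpr were tested in R (version 4.3.3) by the edgeR quasi-likelihood F-test (version 4.0.16), scaled by TMM and without covariates, with Benjamini-Hochberg adjustment at 0.05 over all tested genes. CPM are counts per 1000000 of the TMM-scaled library. Standard errors are the absolute log2 fold change over the square root of F. The p-values weigh the group difference against the spread between animals of a group, which includes library differences such as those of WT A, B and C. Alternatives were DESeq2 (version 1.42.0), other size factors, no filter, a replicate block (without KO F), a ribosomal RNA covariate, length offsets (lowess span 0.3), and leaving out each tumour or WT A, B and C. Scripts were tested on simulated data. Values in every tumour are given for Snrnp48. For the 2 genes of each role with the smallest unadjusted p, the lowest, median and highest KO value and every WT value are given, and the 2 with the smallest p of each list of partners are named; Lsm1, Sf3a2, Sf3b1, Snrnp35 and Snrnp200 were added after their values were seen. Sequence shared between genes was estimated from 100-base stretches of transcripts, without a look at read alignments. Processed pseudogenes with the same prefixes and Lsmem2, a lincRNA in this annotation, are not protein coding and were left out. No pair of libraries of a group agreed within sampling noise (chi-square over its degrees of freedom at least 33.9).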

Additional observations from a re-analysis of the deposited data

Results flagged for a closer look

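Values that stood far from the rest of their group, by Dixon's criterion, were found in 4 of 84 groups examined, where chance gives about 1 in 20, or 4.2. In the KO group, Sf3a3 in KO B was at 5.75 on the log2(CPM + 1) scale, below the other KO tumours at 5.93 to 6.02, and Lsm4 in KO D was at 5.86, below 6.16 to 6.29. In the WT group, Sf3a3 in WT A was at 6.32, above the other WT tumours at 5.85 to 5.99, and Snrpa in WT B was at 7.03, above 6.36 to 6.49. WT A and B are among the libraries with an excess of short transcripts. No value of Snrnp48 stood apart from its group in this way.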

How the results depend on the processing

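The log2 fold change of Snrnp48 had the same sign in 19 of 19 alternatives, but these reuse the counts that chose the gene and are no independent support. The short genes rested on WT A, B and C: without them the median turned from -0.90 to 0.03 and that of the others moved from -0.15 to -0.02, with 3 genes of the set higher and 3 lower at an unadjusted p and 3 genes of the whole table called lower. DESeq2 called 568 genes higher and 990 lower at its adjusted p, and 0 of the set were among the higher ones. At an unadjusted p under 0.05 it put 2 of the set higher, beside 1649 of all 16536 genes. Without a filter the adjusted calls were 39 and 6, and 2 of the set were higher at the unadjusted p, beside 2026 of all 29689 genes. With the ribosomal RNA covariate 2 genes were called higher and 1 lower, and the short-gene median was -0.43. Of the set 10 were then lower at the unadjusted p, beside 1097 of all 16536 genes. With the exonic length offset the adjusted calls were 69 and 29. There 2 of the set were higher at the unadjusted p, beside 1525 of all 16536 genes. The coding length offset gave adjusted calls of 61 and 33 and a short-gene median of -0.28. In that fit 3 of the set were higher and 14 lower at the unadjusted p, beside 1412 and 2330 of all 16536 genes. With a replicate block, which used replicates A to E only and so left out KO F, the adjusted calls were 7 and 1. At the unadjusted p 0 of the set were higher and 15 lower with the block, beside 1294 and 1305 of all 16386 genes. Letters did not pair the animals: same-letter correlations ran from -0.129 to 0.109, and no WT tumour correlated best with the KO tumour of its letter. Leaving out 1 tumour gave 0 to 608 genes called higher and 0 to 1248 lower. The calls were 608 and 1248 without WT E, 203 and 651 without WT D, 30 and 2 without KO F and 0 without any other. The set had 0 to 3 genes higher and 16 to 24 lower at the unadjusted p in these fits. When 1 KO tumour was left out, 2071 (without KO D) to 2277 (without KO C) of all tested genes were lower at that p. The short-gene median ran from -1.07 (without WT D) to -0.56 (without WT B) and the median of the others from -0.20 to -0.10. Of the set other than Snrnp48, 11 genes passed the adjusted p in DESeq2. Counts of the set lower include Snrnp48, whose p is not read. The cause of these shifts was not tested. Snrnp48 was chosen for its difference, so that its size is no independent estimate.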
